A study of Mus musculus with 4 samples.

Results

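Imprinted growth genes were followed through the cells of the juvenile mouse heart: H19, Meg3, Mest, Peg3, Dlk1, Cdkn1c, Plagl1, Grb10, Ndn and Sgce. They were chosen by name, as the 10 genes of that list among the 31053 genes of the deposited count tables, and all 10 were found there. An imprinted gene is transcribed mainly from the copy inherited from one parent, because DNA methylation laid down in the egg or sperm marks the copies differently. Many such genes set the size of the fetus and placenta, are abundant before birth and are switched down as the young animal grows. In general, paternally expressed members of the group favour growth and maternally expressed ones restrain it. Transcripts of both copies were counted together here, so the data say nothing about which parent's copy was read.

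The hearts came from 6-week-old offspring of 2 kinds of dam. The high_fibre group had mothers fed a diet rich in fibre, and the control_diet group had mothers fed a comparison diet that the series text calls low in resistant starch. The dams ate these diets through pregnancy and lactation, and all offspring were moved to standard chow at weaning, at 3 weeks. Each group had 2 libraries, numbered 1 and 2. Tissue was dissociated by perfusion with dispase II (1 mg/mL) and collagenase IV (2 mg/mL), and cells sorted as live, metabolically active and nucleated entered droplet capture. The labels give neither the sex nor the number of animals behind a library. Xist and the Y-linked Ddx3y were both detected in every library, and high_fibre 1 had the most Ddx3y and the least Xist in fibroblasts (76.5 and 336 CPM, against 33.4 to 43.3 and 486 to 730 CPM in the other libraries). Nothing states that the libraries of a group came from separate animals, so the p-values below rest on a spread that could be technical.

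The libraries held 56582577 and 69600492 UMIs (unique molecular identifiers, that is, counted molecules) in high_fibre 1 and 2, and 59317334 and 27577599 in control_diet 1 and 2. The filters kept 6418 and 7606 cells of the high_fibre and 5851 and 2639 cells of the control_diet libraries. Some cells had a barcode that was also kept in another library, namely 764 and 764 cells of the high_fibre and 468 and 761 cells of the control_diet libraries, the last being 28.8% of control_diet 2. In 4.02% to 11.4% of the cells of a library, the same barcode had more UMIs in another library. These cells were small, with median depths of 596 to 656 UMIs, and held 0.401% to 1.20% of their library's UMIs. Keeping each shared barcode only where it was largest moved no member's mean level by more than 0.574%, over the 39 combinations of member and gate at 5 CPM or more.

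Cells were assigned to gates by the UMIs of a few defining genes, none of them a member. Fibroblasts carried Col1a1 and Dcn (6666 cells), pericytes Kcnj8 and Vtn (929) and macrophages C1qa (3174). Endothelial cells carried Pecam1 and Cdh5 and were split into endocardial cells with Npr3 (292), cells with Apln or Kit (430) and other endothelial cells with none of these (5288). Of these sorted cells, 3157 passed no gate and 327 passed the gates of several lineages. The endocardial gate also carried Vwf (1764 to 2187 CPM) and Cytl1 (1779 to 2173 CPM), which were not used to choose it. It carried the fibroblast gene Dcn too, at 2589 to 3947 CPM. Its summed level of 8 fibroblast markers was 4652 and 4283 CPM in high_fibre libraries and 5126 and 3664 CPM in control_diet libraries, against 57029 to 59761 CPM in fibroblasts. How far this moved with the members was not tested. Haemoglobin transcripts varied most, from 137 to 5535 CPM in other endothelial cells and from 10.8 to 11218 CPM in Apln/Kit-positive cells, with the highest value of each in a high_fibre library.

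The 10 genes fell into distinct patterns across the gates. H19 and Plagl1 were concentrated in endocardial cells, and Mest in Apln/Kit-positive endothelial cells. Among the 6 gates, Cdkn1c was highest in the other endothelial cells, and Meg3, Ndn and Sgce in fibroblasts and pericytes. Peg3 was highest in endocardial cells and fibroblasts. Grb10 was spread evenly over stromal and endothelial gates, and Dlk1 was almost undetected. Levels are given as CPM, a gene's UMIs scaled to a common total of UMIs for each gate and library. Since the libraries count transcript ends and the genes were compared only with themselves, a level of one gene is not set against that of another.

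**Figure D1:**
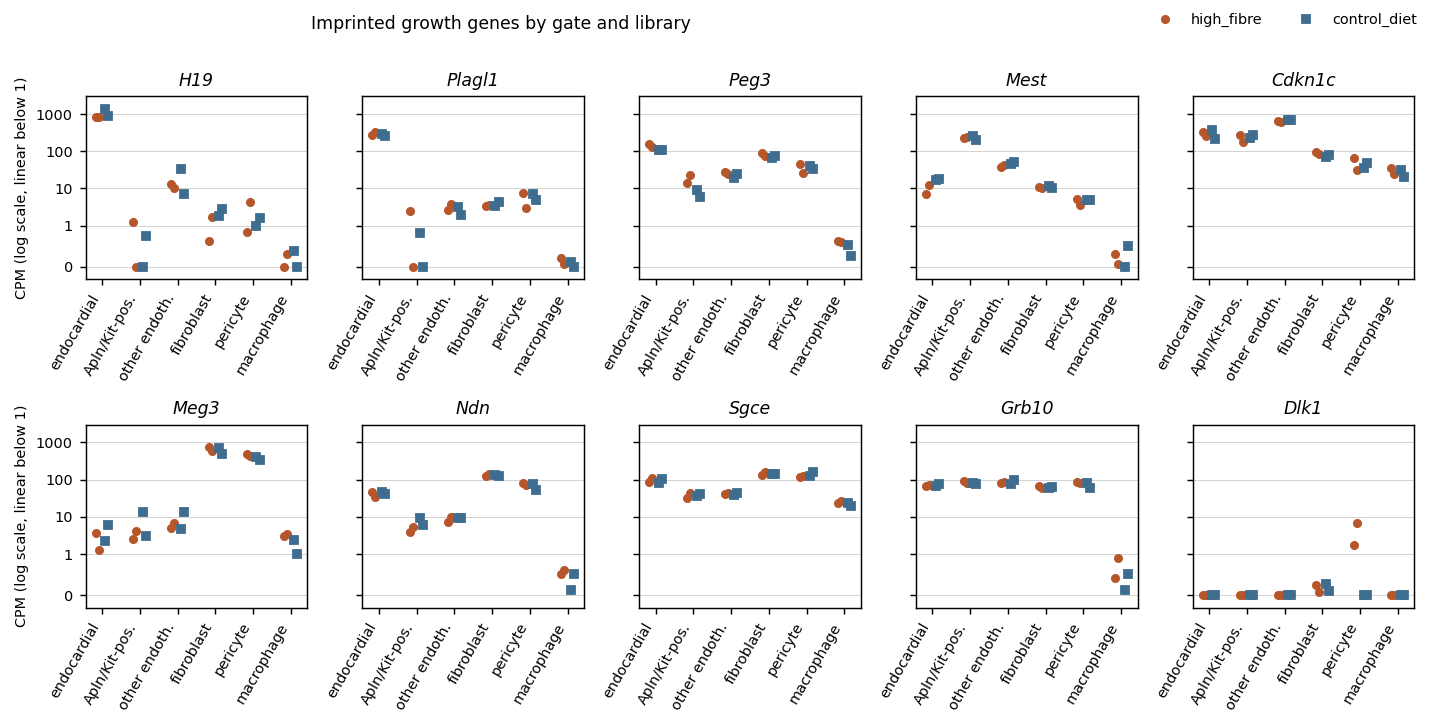
Level of each of the 10 genes (vertical axis, CPM, logarithmic above 1 and linear below) in 6 gates of cells (horizontal axis), with 1 point per library, circles for high_fibre and squares for control_diet. H19 and Plagl1 stand out in endocardial cells, Mest in Apln/Kit-positive cells and Meg3 in fibroblasts and pericytes, while the 2 diet groups lie close together at most levels above 10 CPM.

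H19 is a long non-coding RNA, expressed from the maternal copy, that restrains growth and is the host of the microRNA Mir675. It lies on the minus strand at chr7:142575529-142578143 (GRCm38, the mm10 assembly). In endocardial cells it reached 832 and 857 CPM in the high_fibre libraries, against 1382 and 910 CPM in the control_diet libraries. In other endothelial cells it had 12.9 and 10.2 CPM in high_fibre libraries and 34.1 and 7.10 CPM in control_diet libraries, so every endocardial value was far above every value of the next gate. Fibroblasts had 0.626 to 2.83 CPM and macrophages at most 0.393 CPM, and in the Apln/Kit-positive cells only 2 H19 UMIs were counted in 4 libraries. The endocardial cells, which held 1.61% of all UMIs, thus held 66.3% of the H19 UMIs, with 60.5% to 75.9% by library.

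Plagl1, a zinc finger transcription factor expressed from the paternal copy and known to regulate other imprinted genes, H19 among them, lies on the plus strand at chr10:13060504-13131694. It had 274 and 323 CPM in endocardial cells of high_fibre libraries and 284 and 258 CPM in those of control_diet libraries. No other of the 6 gates exceeded 7.63 CPM in any library. Endocardial cells held 56.8% of its UMIs, and cells that passed no gate or several gates held most of the rest together with fibroblasts. Peg3, a paternally expressed zinc finger protein, lies on the minus strand at chr7:6703892-6730431. It had 156 and 128 CPM in endocardial cells of high_fibre libraries and 110 and 106 CPM in those of control_diet libraries. Fibroblasts followed with 92.1 and 73.2 CPM in high_fibre and 66.9 and 74.7 CPM in control_diet libraries, without overlap with the endocardial values. Other endothelial cells had 19.5 to 28.2 CPM, and Apln/Kit-positive cells 5.97 to 23.0 CPM.

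These differences were tested with the cell types compared within libraries. Between endocardial and other endothelial cells, 7 of the 9 members tested passed an adjusted p of 0.05, and 5 of the 7 were higher in endocardial cells. Of all 12317 genes tested, 41.7% passed, 21.4% higher in endocardial cells and 20.3% lower. Dlk1 did not pass the filter on low counts. The median log2 fold of the 9 members was 1.15, against -0.01 over all genes tested. Plagl1 was higher in endocardial cells by 6.52 on the log2 scale (SE 0.15, edgeR adjusted p = 2.25e-30) and H19 by 5.97 (SE 0.22, edgeR adjusted p = 4.35e-13). Peg3 was higher by 2.34 (SE 0.12, edgeR adjusted p = 8.05e-19). Ndn, a growth-restraining protein of the MAGE family, was higher by 2.17 (SE 0.17) with 34.2 to 47.1 CPM in endocardial cells and 7.25 to 10.1 CPM in other endothelial cells. Sgce, a sarcoglycan of the cell membrane, was higher by 1.15 (SE 0.11). The 2 lower ones were Mest, with a log2 fold of -1.69 (SE 0.21), and Cdkn1c, with -1.21 (SE 0.15).

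The promoters of Plagl1 and Peg3 are shown because both genes were higher in endocardial cells and imprinted promoters carry their methylation on CG dinucleotides. Of the 10 genes, 7 matched a RefSeq promoter of GRCm38.p6, taken as 250 bases before and 50 bases after a transcript start. Capitals mark each CG pair, and bases run 5′ to 3′ on the gene's strand, which is plus for Plagl1 (chr10:13090582-13090881) and minus for Peg3 (chr7:6730370-6730669).
Plagl1: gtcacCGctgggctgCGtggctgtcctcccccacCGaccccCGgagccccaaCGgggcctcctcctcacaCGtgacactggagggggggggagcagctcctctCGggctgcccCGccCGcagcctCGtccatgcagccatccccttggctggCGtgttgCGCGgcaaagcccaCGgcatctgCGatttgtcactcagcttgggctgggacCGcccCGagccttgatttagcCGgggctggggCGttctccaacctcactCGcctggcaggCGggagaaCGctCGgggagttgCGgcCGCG
Peg3: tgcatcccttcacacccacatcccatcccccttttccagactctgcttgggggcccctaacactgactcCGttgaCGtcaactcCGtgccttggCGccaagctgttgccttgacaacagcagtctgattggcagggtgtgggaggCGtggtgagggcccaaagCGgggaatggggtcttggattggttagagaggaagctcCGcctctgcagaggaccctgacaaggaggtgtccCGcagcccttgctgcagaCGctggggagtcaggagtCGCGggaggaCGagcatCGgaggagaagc
The Plagl1 window held 26 CG pairs, and 16.9% of 32851 promoters of this length held as many or more. The Peg3 window held 13, and the median promoter held 7. The letters GGGCGG, the core of the GC box read on both strands, occurred 2 times in the Plagl1 window and not in that of Peg3, and 35.7% of all promoters held them at least once. A match of letters is a description of the window and not a binding site.

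Within the endocardial gate H19 was uneven from cell to cell. It was found in 142 of 292 cells (48.6%), and in 39.2% of the 288 cells deep enough to be thinned to 2000 UMIs each. Plagl1 was found in 222 cells, both genes in 116 and neither in 44. Other endothelial cells had an H19 UMI in 0.983% of 5288 cells and macrophages in 0.221% of 3174, at median depths of 4488 to 5786 and 9506 to 13086 UMIs by library. A cell with H19 held 10 UMIs of it at the median and 112 at most. The 74 cells with at least 10 UMIs held 90.8% of the H19 molecules of the gate. Cells with and without H19 had like depths, with medians of 9603 and 9795 UMIs.

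Set beside each other as a description, endocardial cells with H19 had 106 CPM of Igf2 and those without had 20.6 CPM. Igf2 is the paternally expressed fetal growth factor encoded next to H19. The order was the same in each of the 4 libraries, from 76.0 to 127 CPM with H19 and from 12.1 to 31.0 CPM without. Plvap, a protein of endothelial diaphragms, was also higher in cells with H19 in each library, with 1071 CPM pooled against 629 CPM. Tmem108 of the endocardial marker list was higher in cells with H19 in each library, with 775 CPM pooled against 574 CPM. Vwf, a clotting protein of the same list, was lower in cells with H19 in each library, with 1702 CPM pooled against 2050 CPM. Cytl1 had no common order. Plagl1 had 358 CPM in cells with H19 and 217 CPM in cells without. The lipid carrier Fabp4, abundant in capillaries, had 2694 CPM in cells with H19 and 4904 CPM in cells without, again with the same order in each library. Npr3, the gate gene, had 1996 and 1739 CPM.

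The few H19 molecules of the other endothelial gate were held by 52 cells, and 11 of those cells held 83.9% of them. Of the endocardial list, these 52 cells had 145 CPM of Cytl1, 129 CPM of Tmem108 and 265 CPM of Plvap. The cells without H19 had 25.8, 4.68 and 18.6 CPM. Vwf of the same list had no common order. It was lower in cells with H19 in high_fibre 1 and 2 (20.6 against 44.2 and 59.5 against 77.0 CPM) and higher in both control_diet libraries. Npr3 was 0 by the definition of the gate. The 52 cells also had 1162 CPM of the fibroblast gene Dcn, against 112 CPM in the cells without H19. The median depth of the 52 cells was 8648 UMIs, against 4870 UMIs. In control_diet 1, whose level of 34.1 CPM was the highest of the 4 libraries, 6 cells held 93.0% of the H19 molecules of that gate. A further 506 H19 UMIs lay in cells that passed the gates of several lineages and were left out of every gate.

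**Figure D2:**
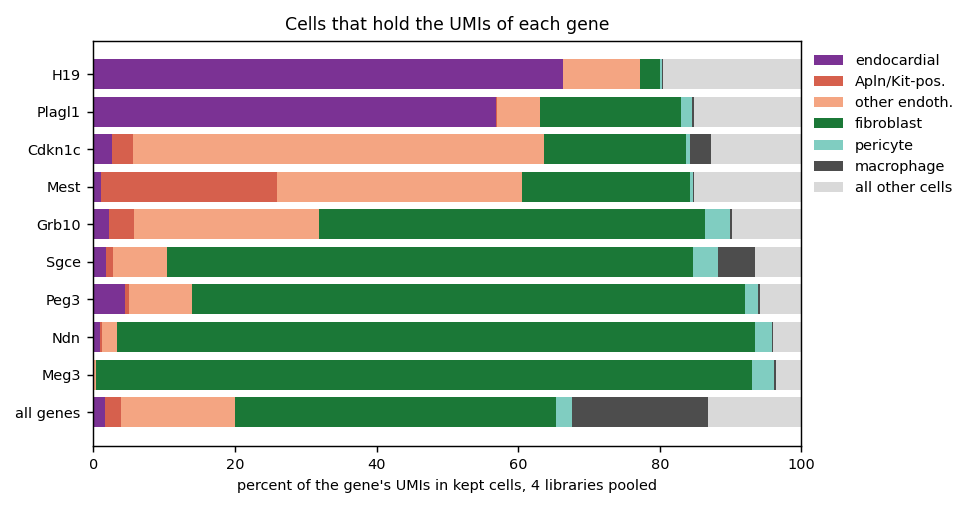
Share of each gene's UMIs held by each gate (horizontal axis, percent of the UMIs in kept cells, 4 libraries pooled), with the share of all genes' UMIs as the last bar; Dlk1, with 36 UMIs in all, is not drawn. Endocardial cells hold 66.3% of H19 and 56.8% of Plagl1 molecules but 1.61% of all molecules, and fibroblasts hold 92.6% of Meg3.

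Mest, a paternally expressed member of the hydrolase fold family that promotes fetal growth and is the host of Mir335, lies on the plus strand at chr6:30723547-30748465. It had 233 and 235 CPM in Apln/Kit-positive cells of high_fibre libraries, against 254 and 195 CPM in those of control_diet libraries. Apln encodes the ligand apelin and Kit a receptor tyrosine kinase, and endothelial cells with Apln are known from sprouting vessels. In other endothelial cells Mest had 38.6 and 44.1 CPM in high_fibre and 46.1 and 50.6 CPM in control_diet libraries. The 2 gates did not overlap, and endocardial cells (7.25 to 17.9 CPM), fibroblasts (9.99 to 11.9 CPM) and pericytes (3.69 to 5.08 CPM) were lower again. Macrophages had 6 Mest UMIs in all. Mest was found in 56.7% of Apln/Kit-positive cells and 15.5% of other endothelial cells, and in 28.2% and 6.98% after thinning to 2000 UMIs.

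Mest was high with either gene of the gate. Cells with both Apln and Kit had a mean of 254 CPM ± 48.9 (SD, n = 4 libraries), cells with Apln alone 221 CPM ± 78.5 and cells with Kit alone 172 CPM ± 53.9, and these values overlapped between libraries. Endothelial cells left unsplit, such as those with a single Apln, Kit or Npr3 UMI, lay between at 74.1 to 90.5 CPM. The genes of the dividing-cell list (Mki67, Top2a, Cdk1 and Ccnb1) summed to 33.1 and 24.3 CPM in Apln/Kit-positive cells of high_fibre libraries and 10.8 and 98.5 CPM in those of control_diet libraries, against 4.57 to 19.5 CPM in other endothelial cells, and their part in the Mest level was not tested.

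Between Apln/Kit-positive and other endothelial cells, 5 of 9 members tested passed. Of all genes tested, 20.6% passed, 10.6% higher in Apln/Kit-positive cells and 10% lower. Only Mest was higher, by 2.40 on the log2 scale (SE 0.10, edgeR adjusted p = 2.67e-21). Cdkn1c was lower, with a log2 fold of -1.41 (SE 0.15, edgeR adjusted p = 1.65e-06), and so was Peg3, with -0.98 (SE 0.21, edgeR adjusted p = 0.000522). H19 and Plagl1 also passed on the lower side. The 2 H19 UMIs of the Apln/Kit-positive cells gave a ratio of 0.0293 to the other endothelial cells, with an exact 95% counting interval of 0.00354 to 0.106. The 3 Plagl1 UMIs gave a ratio of 0.239, with an interval of 0.0484 to 0.722. These intervals cover counting error only and treat each UMI as independent. For H19 that did not hold, since 11 of the 5288 other endothelial cells held 83.9% of that gate's H19 UMIs. By cells, an H19 UMI was found in 2 of 430 Apln/Kit-positive cells (0.465%) and 52 of 5288 other endothelial cells (0.983%). The interval is therefore too narrow for a difference between cells. The median log2 fold of the 9 members was -0.43, against -0.05 over all genes tested.

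Of 3 RefSeq promoters of Mest, the one at chr6:30737800-30738099 (GRCm38.p6, plus strand) is shown. Mest was chosen as the only member called higher in Apln/Kit-positive than in other endothelial cells. Capitals mark CG pairs.
Mest: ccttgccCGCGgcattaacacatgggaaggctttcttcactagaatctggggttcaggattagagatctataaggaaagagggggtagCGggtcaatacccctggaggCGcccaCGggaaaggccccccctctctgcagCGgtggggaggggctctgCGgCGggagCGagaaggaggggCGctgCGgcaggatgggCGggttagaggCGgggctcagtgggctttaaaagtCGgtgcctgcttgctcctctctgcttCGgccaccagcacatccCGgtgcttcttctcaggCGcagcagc
It held 17 CG pairs and 1 GGGCGG, whereas the upstream promoter at chr6:30733256-30733555 held 8 CG pairs. The counts are of transcript ends and do not tell which promoter was used.

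**Figure D3:**
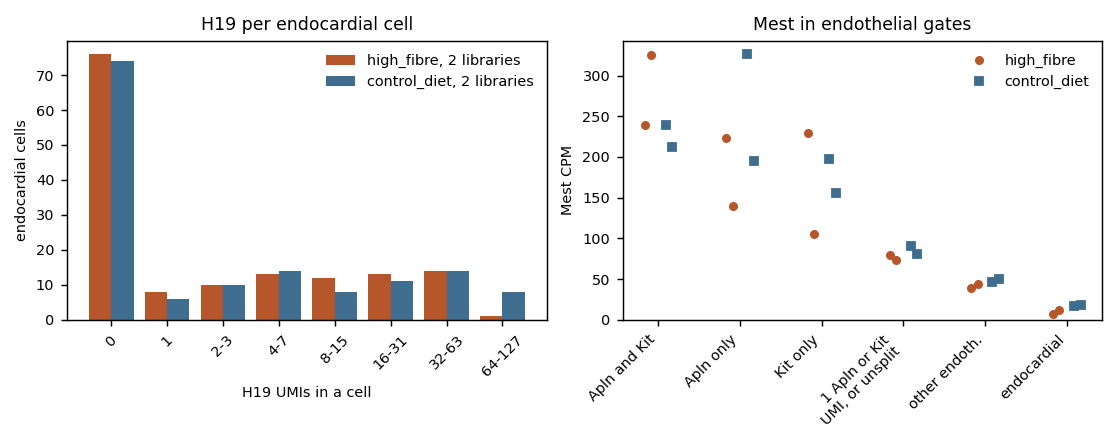
Left, number of endocardial cells (vertical axis) by H19 UMIs per cell (horizontal axis), high_fibre and control_diet libraries pooled within each group; right, Mest CPM (vertical axis) in endothelial gates (horizontal axis), 1 point per library, circles for high_fibre and squares for control_diet. About as many endocardial cells hold no H19 as hold some, and the Mest values of all Apln/Kit-positive subsets lie above the 38.6 to 50.6 CPM of other endothelial cells.

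Cdkn1c, a maternally expressed inhibitor of cyclin-dependent kinases that holds cells out of division, lies on the minus strand at chr7:143458339-143461050. It was highest in other endothelial cells, with 670 and 609 CPM in high_fibre and 705 and 688 CPM in control_diet libraries. Endocardial cells had 335 and 254 CPM in high_fibre and 365 and 215 CPM in control_diet libraries, and Apln/Kit-positive cells 275 and 180 CPM and 229 and 278 CPM. These last 2 gates overlapped with each other and lay below the other endothelial cells in every library. Fibroblasts had 72.2 to 93.7 CPM, pericytes 31.0 to 65.3 CPM and macrophages 20.5 to 34.5 CPM. Other endothelial cells held 58.0% of the Cdkn1c UMIs and 16.1% of all UMIs.

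Meg3, a maternally expressed long non-coding RNA, lies on the plus strand at chr12:109541001-109571726. It had 765 and 575 CPM in fibroblasts of high_fibre libraries, against 689 and 498 CPM in those of control_diet libraries. Pericytes had 492 and 425 CPM in high_fibre and 419 and 344 CPM in control_diet libraries, below the fibroblasts of the same library each time. Schwann cells, the glia of peripheral nerves, had 752 and 592 CPM in high_fibre and 648 and 259 CPM in control_diet libraries, from 132 cells in all. Smooth muscle cells had 21.7 to 93.8 CPM. In endothelial cells and macrophages no library exceeded 13.7 CPM. Meg3 was found in 86.1% of fibroblasts and 2.30% of macrophages, at median depths of 11514 to 16146.5 and 9506 to 13086 UMIs by library.

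Ndn lies on the plus strand at chr7:62346569-62350262 and Sgce on the minus strand at chr6:4674350-4747207, and both are paternally expressed. Ndn had 128 and 140 CPM in fibroblasts of high_fibre and 136 and 122 CPM in those of control_diet libraries. Pericytes had 54.3 to 79.7 CPM and smooth muscle cells 52.4 to 76.8 CPM, in ranges that overlapped. Sgce had 134 and 159 CPM in fibroblasts of high_fibre and 138 and 144 CPM in those of control_diet libraries, while pericytes had 119 and 128 CPM in high_fibre and 126 and 161 CPM in control_diet libraries. In Schwann cells Sgce had 256 and 216 CPM in high_fibre and 248 and 129 CPM in control_diet libraries. These values were above fibroblasts and pericytes of the same library except in control_diet 2, which had 13 Schwann cells. Of the molecules of each gene, fibroblasts held 92.6% for Meg3, 90.1% for Ndn, 78.2% for Peg3 and 74.3% for Sgce, where they held 45.3% of all UMIs.

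Members were also compared between fibroblasts, pericytes and other endothelial cells. The counts of members that passed were not tested against the shares of all genes given beside them. Between fibroblasts and other endothelial cells, 8 of 9 members passed, 4 in each direction, where 75.6% of all genes tested passed (41.7% higher in fibroblasts and 33.9% lower). Meg3 was higher in fibroblasts by 6.50 on the log2 scale (SE 0.23), Ndn by 3.94 (SE 0.09), Sgce by 1.84 (SE 0.07) and Peg3 by 1.72 (SE 0.09). Cdkn1c was lower with -2.96 (SE 0.13), Mest with -1.98 (SE 0.09), H19 with -3.27 (SE 0.33) and Grb10 with -0.36 (SE 0.07). Between pericytes and other endothelial cells 7 of 9 passed, 3 higher and 4 lower, where 59.6% of all genes tested passed (30.6% higher in pericytes and 29% lower). Meg3 was higher in pericytes by 5.59 (SE 0.24), Ndn by 2.72 (SE 0.13) and Sgce by 1.37 (SE 0.09). Between fibroblasts and pericytes 6 of 9 passed, all higher in fibroblasts, where 56.3% of all genes tested passed and 31.7% passed on that side. They were Mest by 1.56 (SE 0.30), Peg3 by 1.43 (SE 0.13), Ndn by 1.22 (SE 0.10), Cdkn1c by 1.22 (SE 0.21), Meg3 by 0.91 (SE 0.17) and Sgce by 0.47 (SE 0.08). The largest edgeR adjusted p among the folds of this paragraph was 0.000181, that of Meg3 between fibroblasts and pericytes.

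The promoter of Meg3 at chr12:109540746-109541045 (GRCm38.p6, plus strand) is shown as that of the member most concentrated in fibroblasts, with CG pairs in capitals.
Meg3: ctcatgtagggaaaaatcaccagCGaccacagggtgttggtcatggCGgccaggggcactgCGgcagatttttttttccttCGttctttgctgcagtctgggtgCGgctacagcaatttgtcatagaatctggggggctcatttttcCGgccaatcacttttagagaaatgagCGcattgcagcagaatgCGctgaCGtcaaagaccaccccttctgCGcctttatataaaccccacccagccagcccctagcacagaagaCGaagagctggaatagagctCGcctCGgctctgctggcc
It held 13 CG pairs and no GGGCGG, and 37.9% of promoters of this length held as many CG pairs or more. The table has a second Meg3 promoter, at chr12:109545148-109545447, which held 1 CG pair.

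Fibroblasts were split by Pi16, a gene of perivascular and adventitial fibroblasts, into cells with at least 2 Pi16 UMIs (5183) and cells with none (980). Meg3 had 744 and 558 CPM in Pi16-positive cells of high_fibre libraries and 684 and 487 CPM in those of control_diet libraries. In Pi16-negative cells it had 796 and 741 CPM in high_fibre and 796 and 593 CPM in control_diet libraries, higher than in the Pi16-positive cells of each library. Peg3 was also higher in Pi16-negative cells in each library, with 107 and 102 CPM in high_fibre and 80.7 and 87.4 CPM in control_diet libraries, against 87.2 and 69.0 CPM and 65.0 and 72.2 CPM in Pi16-positive cells. Ndn had the opposite order, with 92.3 to 119 CPM in Pi16-negative and 125 to 143 CPM in Pi16-positive cells. Median depths by library were 7150.5 to 13173.5 UMIs in Pi16-negative and 12389 to 16541 UMIs in Pi16-positive cells. Pi16-negative cells numbered 54 to 393 in a library. A cutoff on Pi16 UMIs sorts cells partly by depth, and these splits were not tested.

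Grb10, an adaptor protein that dampens insulin and growth factor signalling, lies on the minus strand at chr11:11930508-12038683. By mean level it was ordered from other endothelial cells (76.1 to 97.1 CPM) through Apln/Kit-positive cells (75.4 to 90.3 CPM), pericytes (59.3 to 84.7 CPM) and endocardial cells (68.3 to 77.7 CPM) to fibroblasts (60.1 to 65.8 CPM). Neighbouring gates in that order overlapped, except endocardial cells and fibroblasts. Macrophages stood apart with 0.131 to 0.909 CPM, and T and B cells held 1 and 4 Grb10 UMIs. Between macrophages and other endothelial cells all 9 members tested were lower in macrophages and passed, where 75.3% of all genes tested passed and 36.2% passed on that side. Grb10 had a log2 fold of -6.79 (SE 0.17), Mest of -7.45 (SE 0.23) and Peg3 of -5.02 (SE 0.21), each with an edgeR adjusted p of at most 5.25e-23. Sgce and Cdkn1c were the members best detected in macrophages, with 19.3 to 27.5 CPM and 20.5 to 34.5 CPM, and each was found in over 20% of the cells before thinning (20.4% and 21.4%) and in 4.53% and 5.75% after. Meg3 had a log2 fold of -0.97 (SE 0.40, edgeR adjusted p = 0.0398), and its adjusted p was 0.0611 without high_fibre 1, 0.0904 without high_fibre 2 and 0.0872 without control_diet 2.

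Dlk1, a paternally expressed membrane protein of the Notch ligand type that is abundant in fetal tissue, lies at chr12:109452823-109463336, upstream of Meg3 on the same strand. Only 36 UMIs of it were counted in 22514 cells. Pericytes had 2 and 9 of them in high_fibre libraries and 0 and 0 in control_diet libraries, and fibroblasts 5 and 2 against 7 and 1. No UMI was seen in 5288 other endothelial cells, which allows a share of up to 0.0567% of cells with a UMI, or in 292 endocardial cells, which allows up to 1.03%.

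Genes with the most similar pattern were sought over the 24 sums of 6 gates and 4 libraries, by Pearson's r of log2(CPM + 1) among 8860 genes, as a description. All genes share the libraries, their depth and the gates, so high values are common. Among the genes closest to H19 were Gpm6a and Bmx (r = 0.97 each), and closest to Plagl1 were Tmem108, Gabarapl1 and Atl2 (r = 0.97, 0.96 and 0.96). Tmem108 belongs to the endocardial marker list. Closest to Mest were Fkbp1a, Map4k5 and Fscn1 (r = 0.98, 0.97 and 0.97), to Cdkn1c Plscr2, Ptprb and Hspa12b (r = 0.97, 0.96 and 0.96) and to Peg3 Fam124a, Rhoj and Golim4 (r = 0.97 each). Closest to Meg3 were Scn7a, Gas1 and Arhgap24 (r = 0.98 each) and to Ndn Ccdc80, Camk2n1 and Scarf2 (r = 0.99, 0.98 and 0.98). Sgce was closest to Rbms3, Hlf and Csrp2 (r = 0.98, 0.98 and 0.97) and Grb10 to Nckap1, Cttn and Crip2 (r = 0.99 each). Among the members themselves, Ndn and Sgce (r = 0.97) and H19 and Plagl1 (r = 0.93) were the most alike pairs.

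The second question was whether the members differed with the diet of the mother. In none of the 6 gates did a member pass an adjusted p of 0.05 (edgeR, 40 tests of a member in a gate). At an unadjusted p under 0.05 there were 5 such tests, 2 in endocardial cells and 1 each in fibroblasts, pericytes and Apln/Kit-positive cells, and the DESeq2 test called 0 as well. Over all genes, an unadjusted p under 0.05 was found for 353 of 7662 in endocardial cells, 850 of 13349 in fibroblasts, 489 of 9046 in pericytes, 364 of 8033 in Apln/Kit-positive cells and 551 of 11603 in other endothelial cells. Few genes of any kind passed: 0.015% in fibroblasts, 0.0774% in pericytes, 0.157% in endocardial cells, 0.0124% in Apln/Kit-positive cells, 0.0862% in other endothelial cells and 0% in macrophages, where 342 genes had an unadjusted p under 0.05. Split by direction, 0.0914% of genes were called higher and 0.0653% lower in high_fibre endocardial cells, and 0.0776% higher and 0.00862% lower in high_fibre other endothelial cells. The 40 log2 folds ran from -0.92 to 1.30. In other endothelial cells, Meg3 had a log2 fold of -1.18 without control_diet 1 and H19 one of -1.60 without control_diet 2. Both changed side of the threshold, in fits with a lone control_diet library. For H19 that library was control_diet 1, where 6 of 1335 other endothelial cells held 93.0% of the gate's H19 UMIs. The share of these cells with H19 was 1.05% in control_diet 1, against 0.879% and 1.11% in high_fibre 1 and 2. With 2 libraries a group, a p that misses the threshold does not show that the groups are alike.

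In endocardial cells Peg3 had 156 and 128 CPM in high_fibre against 110 and 106 CPM in control_diet libraries (log2 fold 0.39, SE 0.19, edgeR adjusted p = 0.997). In Apln/Kit-positive cells it had 14.0 and 23.0 CPM in high_fibre against 9.12 and 5.97 CPM in control_diet libraries, from 28 and 19 UMIs (log2 fold 1.30, SE 0.46, edgeR adjusted p = 0.992). In other endothelial cells it had 28.2 and 25.2 CPM against 19.5 and 24.7 CPM (log2 fold 0.28, SE 0.15, edgeR adjusted p = 0.99955), and the same order held in macrophages at under 1 CPM. Both high_fibre libraries were above both control_diet libraries in each of these gates, an order that other members also showed in single gates, in either direction. Of the 10 members, Peg3 included, 1 lay above and 2 below without overlap in endocardial cells, and 1 and 1 in Apln/Kit-positive cells. In other endothelial cells 1 lay above and 2 below, in macrophages 3 and 0, in fibroblasts 1 and 1, and in pericytes 2 and 0. Macrophages held 19 Peg3 UMIs in all. How often all genes showed such an order was not counted, so no trend of Peg3 or of the members is read from these orders and counts. In fibroblasts the groups overlapped (log2 fold 0.24, SE 0.12, edgeR adjusted p = 0.885), and they overlapped in pericytes. The gates come from the same 4 libraries and are not separate replicates.

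H19 lay below control in endocardial cells of both high_fibre libraries, with a log2 fold of -0.43 (SE 0.16, edgeR adjusted p = 0.834), and the gap to control_diet 2 was small (857 against 910 CPM). The share of endocardial cells with H19 was 43.9% and 51.1% in high_fibre libraries and 51.7% and 44.6% in control_diet libraries, so it overlapped. The molecules per cell with H19 were 18.4 and 14.7 in high_fibre and 26.4 and 24.4 in control_diet libraries. Cells with 64 or more H19 UMIs numbered 1 and 0 in high_fibre and 5 and 3 in control_diet libraries. Endocardial cells of control_diet libraries were also deeper, with median depths of 9362 and 8893 UMIs in high_fibre and 9825 and 11620 UMIs in control_diet libraries. In fibroblasts H19 had 0.626 and 1.67 CPM against 1.82 and 2.83 CPM (log2 fold -0.91, SE 0.46, edgeR adjusted p = 0.881), and 1 cell of control_diet 2 held 25 of that library's 27 fibroblast UMIs.

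Mest in the Apln/Kit-positive cells overlapped between the groups, with a log2 fold of 0.08 (SE 0.15, edgeR adjusted p = 0.992). In other endothelial cells both high_fibre libraries were below both control_diet libraries, with a log2 fold of -0.22 (SE 0.12, edgeR adjusted p = 0.99955). Endocardial Mest had the same order without a call, with 7.25 and 12.7 CPM in high_fibre against 17.1 and 17.9 CPM in control_diet libraries, from 4 and 10 against 15 and 12 UMIs. Cdkn1c in fibroblasts had 93.7 and 83.5 CPM in high_fibre against 72.2 and 77.6 CPM in control_diet libraries, without overlap (log2 fold 0.26, SE 0.09, edgeR adjusted p = 0.67). In other endothelial cells, where Cdkn1c was highest, the order was the opposite, with 670 and 609 CPM in high_fibre against 705 and 688 CPM in control_diet libraries, also without overlap and without a call. Meg3 in pericytes had a log2 fold of 0.28 (SE 0.14, edgeR adjusted p = 0.919), again without overlap. Meg3 in macrophages, from 30 and 45 UMIs in high_fibre and 18 and 4 UMIs in control_diet libraries, had a log2 fold of 0.83 (SE 0.43, edgeR adjusted p = 0.99998). The remaining tests with an unadjusted p of 0.1 or more had log2 folds from -0.92 to 0.31, over 30 tests.

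**Figure D4:**
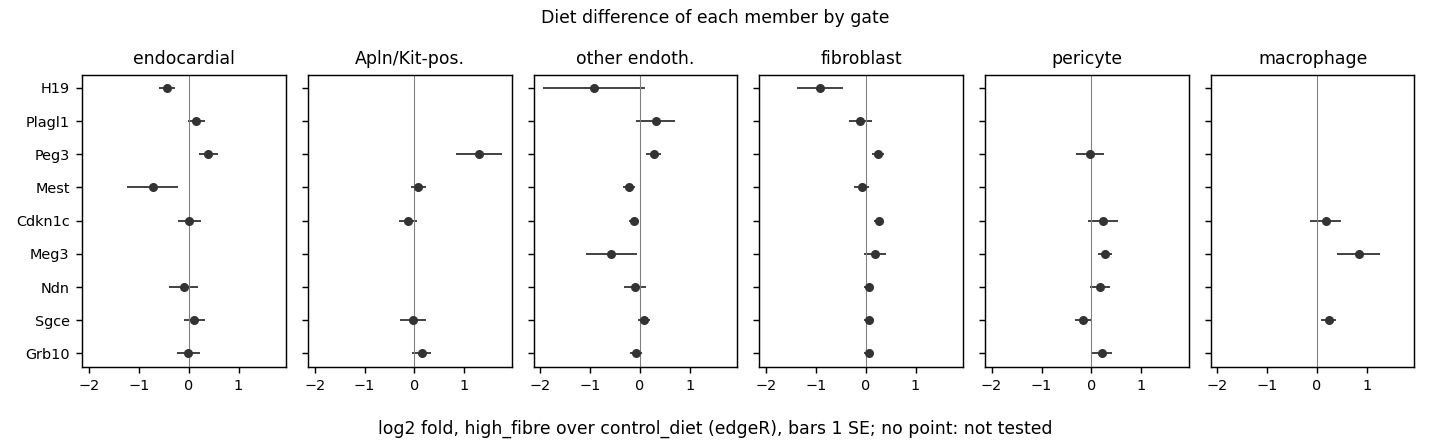
Log2 fold of each member (rows) in high_fibre over control_diet libraries (horizontal axis, edgeR, bars 1 SE) in each of 6 gates; members that did not pass the filter on low counts have no point. Folds of well detected members lie near 0, Peg3 is right of 0 in 4 of the 5 gates where it was tested, and no fold passed an adjusted p of 0.05.

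Over all kept cells of a library, without gates, H19 had 15.5 and 19.2 CPM in high_fibre and 36.7 and 31.7 CPM in control_diet libraries, and Mest had 16.98 and 17.14 CPM in high_fibre and 23.16 and 31.39 CPM in control_diet libraries. The groups did not overlap in either gene, and this was not particular to them. With each shared barcode kept only where it was largest, Cdkn1c, Plagl1 and Grb10 were also lower in both high_fibre libraries. Dlk1, with few UMIs, was higher in both. How often all genes showed such an order was not counted, so no trend is read from it. The share of endocardial cells was 0.888% and 1.18% of kept cells in high_fibre and 1.52% and 2.12% in control_diet libraries. The share of Apln/Kit-positive cells was 1.43% and 1.25% in high_fibre and 2.14% and 4.47% in control_diet libraries. In pooled cells, fewer cells of a type and fewer molecules per cell cannot be told apart. The shares describe sorted cells and were not tested here.

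Of 58 other imprinted genes, 55 were in the tables. Between endocardial and other endothelial cells 18 of the 36 tested were higher and 4 lower, where 21.4% and 20.3% of all genes tested passed. Igf2 had the largest log2 fold of the list, with a mean of 61.3 CPM in endocardial cells and a mean of at most 3.43 CPM in any other of the 6 gates (log2 fold 4.21, SE 0.28, edgeR adjusted p = 6.14e-16). Between Apln/Kit-positive and other endothelial cells, where 10.6% of all genes tested passed on the higher and 10% on the lower side, 1 of the 36 was higher, the adaptor Gab1 (log2 fold 0.54, SE 0.15), and 3 were lower, Snrpn (-1.43, SE 0.33), Kcnq1ot1 (-0.71, SE 0.09) and Cd81 (-0.35, SE 0.05). By diet, 0 of 19 to 40 tested genes of this list passed in any gate (edgeR), and 1 to 3 had an unadjusted p under 0.05.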

How the data were processed

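Droplet RNA counts (10x 3′ chemistry, per the labels' protocols) were deposited by the authors as whole UMI counts per gene and barcode, with gene and barcode lists, for 4 libraries. Cell Ranger 3.1.0 and mm10 are named in the submitters' processing notes. Barcodes with at least 500 UMIs, 250 genes and at most 20% mitochondrial UMIs were kept, and 2.16% to 6.56% of barcodes were removed as doublets by a score on simulated doublets (2 per cell, 2000 genes, 30 components). Cells were gated on at least 1 UMI each of Col1a1 and Dcn with 4 in sum, Pecam1 and Cdh5, or Kcnj8 and Vtn, and on 5 of C1qa. Endothelial cells were split at 2 UMIs of Npr3 or of Apln and Kit summed. A cell passing the gates of several lineages was left out.

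Counts were summed per gate and library and tested with edgeR 4.0.16 (quasi-likelihood, TMM, Benjamini-Hochberg adjustment over all genes tested, threshold 0.05) in R 4.3.3. Comparisons of cell types had the library as a block, and comparisons of diet were made within a gate, 2 libraries against 2. The SE is the size of the log2 fold divided by the square root of F. The scripts were tested on simulated data. All members were described whatever their values, with the 3 genes of highest Pearson r for each member reaching 20 CPM. 1 gene that this rule names is not reported here. Alternatives were DESeq2 1.42.0 and its size factors, no filter on low counts, stricter gates, no removal of doublets, blocks, each library left out and, chosen after seeing the data, shared barcodes kept in 1 library only. The members and lists were chosen with earlier results of these data known. Exact binomial intervals (95%) describe counting error alone.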

Additional observations from a re-analysis of the deposited data

How the results depend on the processing

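A chosen set of 48 log2 folds of named members was recomputed under each alternative, and 523 of 528 values kept their direction and their side of the threshold. A fold that was not called in either fit counts as kept. The folds of H19 and Meg3 by diet in other endothelial cells, which changed side, were not in that set. The fold of Mest by diet in Apln/Kit-positive cells, 0.08 with all libraries, ranged from -0.11 without control_diet 2 to 0.29 without control_diet 1, and was -0.10 with no removal of doublets. The other 3 values were those of Meg3 in macrophages given above. The counts of members called were within 1.5 times of those reported in 130 of 132 values. Members called by diet in other endothelial cells ranged from 0 to 1 as single libraries were left out. The folds concerned were those of Meg3 without control_diet 1 (log2 fold -1.18, SE 0.28) and of H19 without control_diet 2 (log2 fold -1.60, SE 0.19). Each fit had a lone control_diet library that is assumed to vary like the others. For H19 it was control_diet 1, where 6 cells held 93.0% of that gate's H19 UMIs. With the replicate number as a block, 0 members were called by diet in each of the 6 gates, while the calls over all genes ranged from 4 to 88 by gate, against 0 to 12 without the block. Those calls over all genes ranged from 18 to 258 with no filter on low counts and from 0 to 37 with DESeq2. Same-numbered libraries had deviations correlated at -0.02 to 0.33, and with 2 pairs the numbers were not taken as a pairing. Dlk1 in every gate, and H19 and Plagl1 in Apln/Kit-positive cells and macrophages, rest on few molecules. With 2 libraries a group, only differences large against their spread could be called.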

Other observations

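Among the other imprinted genes, 11 reached a mean of 100 CPM in at least 1 gate and 14 stayed below 1 CPM in all 6. Airn, the non-coding RNA that silences its neighbours on the paternal copy, and Igf2r, the receptor that clears IGF2, were high in the same gates. Airn had a mean of 166 CPM in pericytes and 147 CPM in endocardial cells, and Igf2r 202 and 175 CPM. In macrophages Airn had 0.60 CPM and Igf2r 0.84 CPM. Airn and Igf2r overlap on opposite strands. Kcnq1ot1, the non-coding RNA of the Cdkn1c domain, had its highest mean in endocardial cells, at 512 CPM.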
